A study of Mus musculus with 32 samples.

Results

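The set of 57 mitosis and chromosome segregation genes comprised those whose products build the mitotic spindle, attach and separate chromosomes, and divide the cell, chosen by name from textbook roles, with earlier results of these arrays known. A probe set was listed for 55 of the 57 genes, out of 12403 genes with a probe set of a single symbol, and Espl1 and Cdca8 were not analysed here. Pooled whole retinas (8 to 14 per sample) of rd1 and wt mice were hybridised to mouse expression arrays, with 4 arrays in each of the 8 groups rd1 P2, rd1 P4, rd1 P6, rd1 P8, wt P2, wt P4, wt P6 and wt P8, and 32 arrays in all, where P is the postnatal day. Both strains were on the C57BL/6 background. The rd1 mice were homozygous for the rd1 allele of Pde6b, the gene for the beta chain of rod phosphodiesterase, together with the linked light ear (le) mutation, and the wt mice were homozygous for the normal allele. Runts were excluded. Whether samples of a group came from separate litters was not given in the sources used here, and the p-values then cover the variation among these pools, which may be technical. Expression values are on the log2 scale, where a difference of 1 is a 2-fold difference, and each gene was read on its brightest probe set.

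In the newborn mouse retina, progenitor cells still divide and leave the cell cycle to become rods, bipolar cells and Mueller glia, with the central retina finishing before the periphery. Transcripts of the mitotic machinery are made mainly in G2 and M phase and are lost from cells that stop dividing. In pooled tissue, fewer cells of a type and less RNA per cell cannot be told apart. A cyclin B kinase starts mitosis, the spindle and kinetochores align the chromosomes, the spindle checkpoint holds the anaphase promoting complex until they are attached, and the midzone then directs cytokinesis.

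Pde6b itself was lower on the rd1 arrays at P6, where it averaged 10.69 ± 0.17 in rd1 and 13.33 ± 0.04 in wt (SD, n = 4 each; adjusted p = 0.0217, limma). At P2 it did not follow the labels: it read 7.0, 9.18, 9.24 and 6.84 on the arrays labelled rd1 P2, against 6.96, 7.19, 9.42 and 9.76 on those labelled wt P2. The 3′ minus 5′ signal of Gapdh, a sign of RNA integrity, was 1.54 and 1.57 on the arrays labelled rd1 P2 replicates 1 and 4, and between 0.04 and 0.74 on the other 30 arrays. Results that use the P2 arrays are therefore given for the labels as they stand, and again without those arrays where another start can be used. Correlations between arrays of a group ran from 0.981 to 0.998. Control probe sets for Bacillus transcripts, which mouse RNA lacks, read between 1.75 and 4.89, and this range served as the background level.

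The mitosis genes started high and fell steeply in both genotypes. The median of the 55 genes on each array was 9.83, 9.75, 9.97 and 9.64 at P2, 9.28, 8.62, 8.14 and 8.46 at P4, 6.70, 6.22, 6.95 and 6.58 at P6 and 5.43, 4.96, 5.55 and 4.61 at P8 in rd1 retinas. In wt retinas it was 9.84, 9.67, 9.78 and 9.80 at P2, 9.0, 8.82, 7.71 and 8.65 at P4, 5.34, 5.49, 5.34 and 5.92 at P6 and 4.74, 4.99, 4.89 and 4.40 at P8. The 4 rd1 P6 arrays all lay above the 4 wt P6 arrays, while the 2 genotypes overlapped at the other 3 ages. The median of all probe sets stayed between 6.54 and 6.76 on every array.

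**Figure D1:**
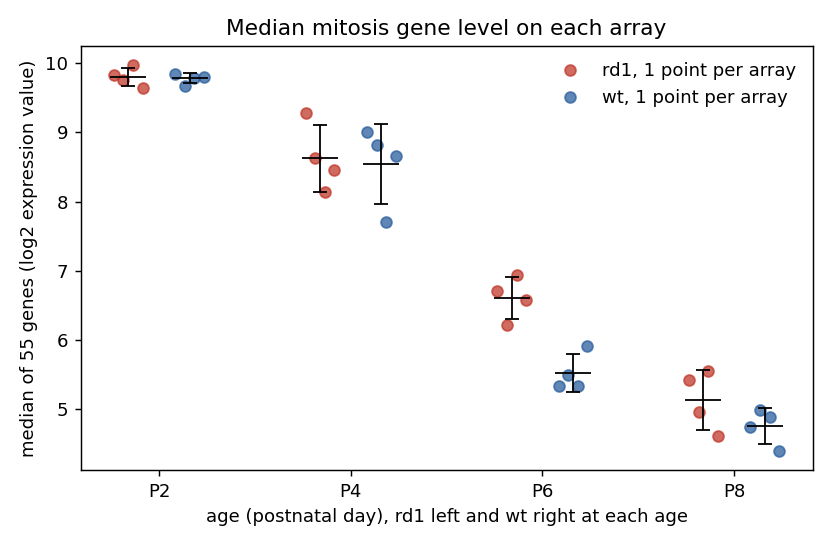
Median log2 expression value of the 55 mitosis genes on each array (y axis) by postnatal day (x axis), rd1 in red left of wt in blue, with the mean and SD of 4 arrays in black. The arrays span 6.22 to 6.95 in rd1 and 5.34 to 5.92 in wt at P6, and overlap at P2, P4 and P8.

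At P6, 54 of the 55 genes had a higher mean in rd1 than in wt retinas. The median difference was 0.98 on the log2 scale, against 0.04 over all 12403 genes, and 27 of the genes were at least 2-fold higher. By limma's moderated test with Benjamini-Hochberg adjustment over 22626 probe sets, 15 of the 55 were higher in rd1 than in wt. A call here means an adjusted p under 0.05. Of all genes 0.185% were called higher, and none of the 55 was called lower. Of the 23 genes called higher at this age 15, or 65.2%, were in the set. The other 8 were Ckap2, Dbf4, Dnajc7, Heph, Hmgb2, Neurod4, Polr2b and 2610524H06Rik. Ccnb1, one of the 15, was named through the study's list of genes that differed between rd1 and wt, and without it 14 of 54 genes were called, or 63.6% of 22. The 4 rd1 arrays lay wholly above the 4 wt arrays for 29 of the 55 genes, against 2.66% of all genes. The count of calls rested on single arrays: when replicate 3 or 4 of rd1 P6, or replicate 1 or 2 of wt P6, was left out, only Ccnb1, Nusap1 and Cenpf, 3 genes, were called. Leaving out replicate 1 of rd1 P6 gave 9 calls and leaving out replicate 3 of wt P6 gave 4. It was also 3 without the 8 arrays of P2, which enter only the shared estimate of spread, while the median difference stayed between 0.88 and 1.13 when any 1 array of P6 was left out.

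**Figure D2:**
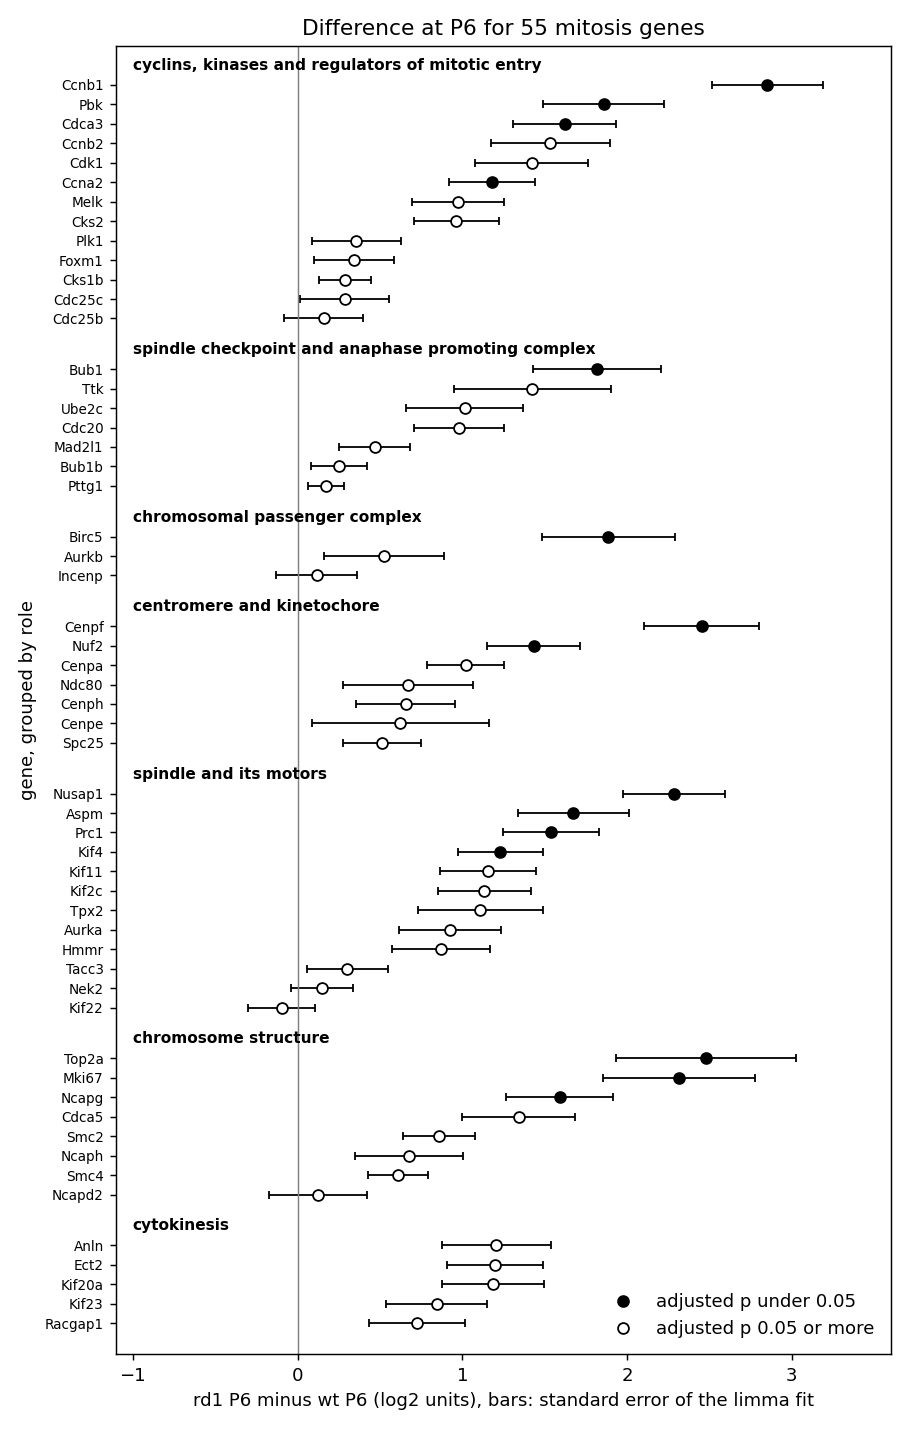
Difference rd1 P6 minus wt P6 in log2 units (x axis) for 55 genes grouped by role (y axis), with the standard error of the limma fit as bars; filled points have an adjusted p under 0.05. The differences run from -0.10 for Kif22 to 2.85 for Ccnb1, and each role apart from cytokinesis holds at least 1 filled point.

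Promoter windows of the 4 genes with the smallest p at P6 that had one are shown because the set moved together over age. The CCAAT box and the cell cycle genes homology region (CHR) are elements described in promoters of genes expressed in G2 and M phase. The CHR was searched as TTTGAA, and its variant form as TTCGAA. Each window, from RefSeq on build GRCm38.p6, runs from 250 bases before to 50 bases after an annotated transcription start, 5′ to 3′ on the gene's strand, with matches to these motifs in capitals. They lie at chr13:100786437-100786736 (minus strand) for Ccnb1, chr2:119618048-119618347 (plus strand) for Nusap1, chr1:189688037-189688336 (minus strand) for Cenpf and chr7:80294201-80294500 (plus strand) for Prc1, the first of 2 listed starts of that gene.
Ccnb1: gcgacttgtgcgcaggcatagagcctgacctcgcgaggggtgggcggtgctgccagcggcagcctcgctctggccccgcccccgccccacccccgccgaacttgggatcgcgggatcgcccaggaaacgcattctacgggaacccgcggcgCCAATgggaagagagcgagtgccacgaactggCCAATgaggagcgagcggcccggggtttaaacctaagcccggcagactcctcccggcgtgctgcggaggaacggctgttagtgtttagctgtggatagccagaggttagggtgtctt
Nusap1: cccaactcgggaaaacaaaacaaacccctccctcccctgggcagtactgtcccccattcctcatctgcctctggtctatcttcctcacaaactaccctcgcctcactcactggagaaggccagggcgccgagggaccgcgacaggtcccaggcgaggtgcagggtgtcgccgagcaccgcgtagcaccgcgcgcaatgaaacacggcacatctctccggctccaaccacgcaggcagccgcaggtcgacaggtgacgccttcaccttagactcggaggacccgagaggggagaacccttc
Cenpf: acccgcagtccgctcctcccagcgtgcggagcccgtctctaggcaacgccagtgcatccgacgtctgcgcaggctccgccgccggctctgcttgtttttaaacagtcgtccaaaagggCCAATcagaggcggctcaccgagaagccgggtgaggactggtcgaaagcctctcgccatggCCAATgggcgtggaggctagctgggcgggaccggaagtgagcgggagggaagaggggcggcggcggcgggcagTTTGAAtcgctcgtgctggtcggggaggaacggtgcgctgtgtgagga
Prc1: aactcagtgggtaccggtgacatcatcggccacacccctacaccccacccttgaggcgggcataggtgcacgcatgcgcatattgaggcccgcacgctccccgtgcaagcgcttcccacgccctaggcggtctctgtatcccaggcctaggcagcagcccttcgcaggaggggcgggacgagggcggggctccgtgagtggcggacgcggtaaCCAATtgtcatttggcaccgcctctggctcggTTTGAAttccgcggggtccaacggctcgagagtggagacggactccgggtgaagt
Ccnb1 held CCAAT at 99 and 67 bases before its start. Cenpf held a CCAAT box at 132 and at 71 bases before its start and a CHR at 2 bases after it, and Prc1 held a CCAAT box at 37 and a CHR at 5 bases before its start. None of the 3 motifs was in the Nusap1 window. A window was listed for 46 of the 55 genes, and both strands were searched, where the CCAAT box reads ATTGG on the other strand, the CHR reads TTCAAA and the variant form reads the same. Counted by gene, the CCAAT box was in 73.9% of these 46 genes, against 42.3% of 9891 genes on the array, and the CHR in 67.4% against 15.4%. The variant CHR was in 8.70% against 2.25%, and a CCAAT box together with either form in 63.0% against 6.87%. Over all 27025 genes with a listed window the shares were 41.1% for the CCAAT box, 20.2% for the CHR and 1.80% for the variant CHR. Counted by window instead, over 32851 windows, they were 37.4%, 17.9% and 1.56%. These are matches of letters and were not tested as sites.

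Of the 13 measured genes for mitotic entry, 4 were called higher in rd1 than in wt at P6 (Ccnb1, Pbk, Cdca3 and Ccna2). The other 9 were not called. Ccnb1, the cyclin B1 subunit of the kinase that starts mitosis, stood at 6.01, 5.44, 5.85 and 5.11 on the rd1 P6 arrays, against 2.40, 2.64, 3.01 and 2.94 on the wt P6 arrays. The groups were far apart, with a fitted difference of 2.85 ± 0.34 (SE; adjusted p = 6.74e-05, limma). Every wt value lay in the background range, so the fold is a lower bound: with each wt array raised to the top of that range where it lay below it, Ccnb1 was at least 1.63-fold higher in rd1. Pbk, a mitotic kinase, read 8.22, 7.72, 8.63 and 8.45 in rd1, against 5.56, 6.44, 6.39 and 7.22 in wt, a 3.63-fold difference (adjusted p = 0.0280, limma). Cdca3, an adaptor for the destruction of the mitosis inhibitor Wee1, read 6.65, 6.70, 7.44 and 6.69 in rd1, against 4.65, 5.52, 4.91 and 5.92 in wt, with rd1 replicate 3 standing above the other 3 rd1 arrays. Ccna2, cyclin A2, averaged 8.77 ± 0.36 in rd1 and 7.59 ± 0.21 in wt (SD, n = 4 each; adjusted p = 0.0462, limma). Ccnb2, the second mitotic cyclin B, and Cdk1, the kinase that these cyclins activate, had differences of 1.54 ± 0.36 and 1.42 ± 0.34 (SE) that missed the threshold (adjusted p = 0.0754 and 0.0822, limma). The activators of that kinase differed little at P6: Cdc25b by 0.16 ± 0.24, Cdc25c by 0.29 ± 0.27 and Plk1, polo-like kinase 1, by 0.36 ± 0.27 (SE). Foxm1, a transcription factor of G2 and M genes, differed by 0.34 ± 0.24 (SE; adjusted p = 0.737, limma), although its 4 rd1 arrays lay above its 4 wt arrays.

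Among 7 genes of the spindle checkpoint and the anaphase promoting complex, Bub1 was the gene called higher in rd1. Bub1, a checkpoint kinase at kinetochores, read 5.60, 4.88, 6.48 and 5.06 in rd1 at P6, against 3.51, 3.57, 3.34 and 4.32 in wt (adjusted p = 0.0396, limma). Its 4 wt values and its rd1 value of 4.88 were in the background range. By the same bound, which leaves rd1 values as read, it was at least 1.53-fold higher. The checkpoint kinase Ttk differed by 1.43 ± 0.48 and the ubiquitin-conjugating enzyme Ube2c by 1.02 ± 0.35 (SE). Neither passed the test, and the arrays of both overlapped. Cdc20, the activator of the complex, averaged 8.22 ± 0.31 in rd1 and 7.24 ± 0.44 in wt (SD, n = 4 each; adjusted p = 0.162, limma), with no overlap. Bub1b, the checkpoint partner of Bub1, differed by 0.25 ± 0.17 and Pttg1, securin, by 0.17 ± 0.11 (SE).

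Of the 3 measured genes of the chromosomal passenger complex, 1 was called higher in rd1 at P6. Birc5, survivin, read 7.57, 6.42, 7.33 and 6.58 in rd1 at P6, against 4.22, 4.37, 5.70 and 6.06 in wt. It was 3.70-fold higher on the group means (adjusted p = 0.0396, limma). The wt values of 4.22 and 4.37 lay in the background range, so this fold is approximate. The kinase of the complex, Aurkb, averaged 5.60 ± 0.62 in rd1 and 5.08 ± 0.16 in wt, and its scaffold, Incenp, 7.12 ± 0.38 in rd1 and 7.0 ± 0.26 in wt (SD, n = 4 each), and neither passed the test (adjusted p = 0.737 and 0.888, limma). Aurkb read 4.97, 5.03, 5.0 and 5.31 on the wt P6 arrays and 4.96, 4.99, 4.99 and 5.03 on the wt P8 arrays. These values lay just above the background range, so its measurable difference at P6 may be limited. The differences between these members were not themselves tested.

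At the centromere and kinetochore, 2 of 7 genes were called higher in rd1, Cenpf and Nuf2. Cenpf, a large kinetochore protein that accumulates in G2, read 7.53, 5.96, 8.19 and 7.20 in rd1 at P6, against 4.41, 4.61, 5.11 and 4.92 in wt. The fitted difference of Cenpf was 2.45 ± 0.35 (SE, adjusted p = 0.000891, limma). With its wt mean in the background range, it was at least 4.80-fold higher, and its rd1 arrays spread more than its wt arrays (SD 0.94 and 0.31). Nuf2, a subunit of the Ndc80 complex that grips microtubules, read 6.62, 6.22, 7.36 and 6.58 in rd1, against 5.0, 5.03, 5.31 and 5.71 in wt (adjusted p = 0.0280, limma). Its partners Ndc80 and Spc25 differed by 0.67 ± 0.40 and 0.51 ± 0.24 (SE), with overlapping arrays. Cenpa, the centromeric histone H3 variant, had a difference of 1.02 ± 0.23 (SE) just beyond the threshold (adjusted p = 0.0595, limma).

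Of 12 spindle and motor genes, 4 were called higher in rd1 at P6: Nusap1, Aspm, Prc1 and Kif4. Nusap1, which bundles spindle microtubules near chromosomes, read 7.05, 6.37, 7.26 and 6.69 in rd1, against 3.94, 4.42, 4.27 and 5.58 in wt. Its fitted difference was 2.29 ± 0.31 (SE, adjusted p = 0.000483, limma), and it was at least 3.42-fold higher. Prc1, the crosslinker of midzone microtubules, read 7.04, 6.12, 7.29 and 7.52 in rd1, against 5.51, 5.30, 5.28 and 5.72 in wt (adjusted p = 0.0217, limma). Kif4, the chromosome-associated kinesin that works with Prc1, differed by 1.23 ± 0.26 (SE, adjusted p = 0.0396, limma) and was at least 1.79-fold higher. Aspm, a spindle pole protein of dividing neural progenitors, read 6.05, 5.44, 6.83 and 6.01 in rd1, against 4.43, 4.23, 3.71 and 5.26 in wt. It differed by 1.68 ± 0.34 (SE, adjusted p = 0.0280, limma) and was at least 2.14-fold higher. For all 4 genes the rd1 arrays lay above the wt arrays. The kinesins Kif11, which pushes spindle poles apart, and Kif2c, which shortens microtubules, differed by 1.16 ± 0.29 and 1.13 ± 0.28 (SE) with no overlap but did not pass the test (adjusted p = 0.100 and 0.0867, limma). Kif22 had the lowest difference of the set, -0.10 ± 0.20, and the centrosomal kinase Nek2 differed by 0.15 ± 0.19 (SE).

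Among 8 genes of chromosome structure, Top2a, Mki67 and Ncapg were called higher in rd1 at P6. Mki67, which coats mitotic chromosomes and is the Ki-67 proliferation antigen, read 8.21, 7.71, 9.10 and 8.84 in rd1 at P6, against 5.99, 5.95, 5.65 and 6.99 in wt, a 4.98-fold difference (adjusted p = 0.0280, limma). Top2a, the topoisomerase that untangles sister chromatids, averaged 8.42 ± 0.45 in rd1 and 5.94 ± 0.34 in wt (SD, n = 4 each; adjusted p = 0.0462, limma). The condensin subunits ranged widely: Ncapg, of condensin I, differed by 1.59 ± 0.33 (adjusted p = 0.0342, limma; at least 1.79-fold higher), Smc2 by 0.86 ± 0.22, Ncaph by 0.68 ± 0.33, Smc4 by 0.61 ± 0.18 and Ncapd2 by 0.12 ± 0.30 (SE). None of the 5 cytokinesis genes passed the test, although all 5 were above 0, between 0.73 for Racgap1 and 1.21 for Anln. Ect2, the exchange factor that activates RhoA at the division plane, read 6.87, 6.15, 7.04 and 7.27 in rd1, against 5.44, 5.36, 5.77 and 5.96 in wt, which did not overlap (difference 1.20 ± 0.29, SE; adjusted p = 0.0823, limma).

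**Figure D3:**
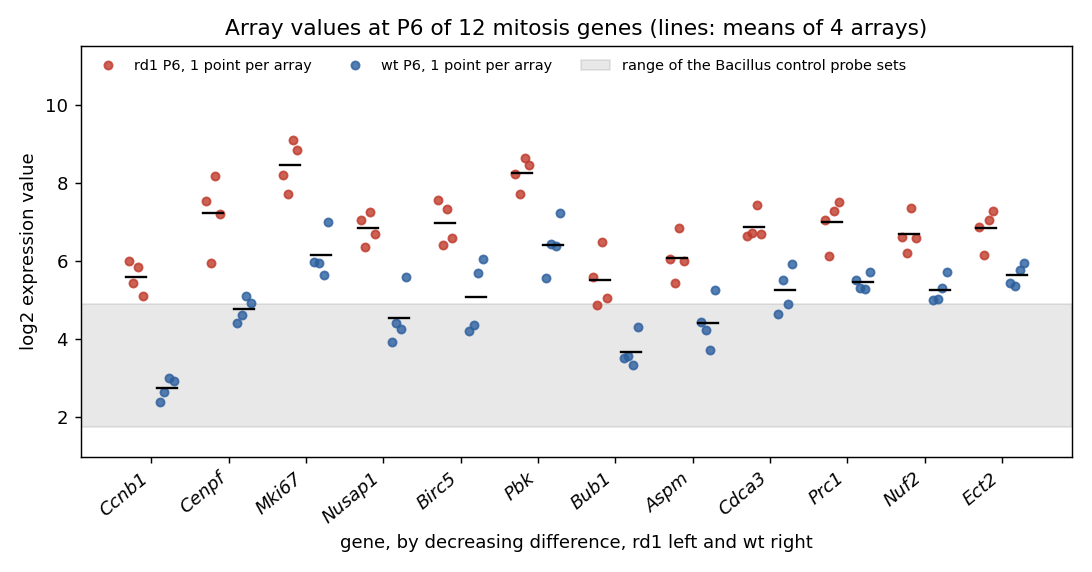
Log2 expression value (y axis) on each P6 array for 12 genes (x axis), rd1 in red left of wt in blue, with the mean of 4 arrays as a line and the range of the Bacillus control probe sets, 1.75 to 4.89, in grey. In all 12 genes the rd1 points lie above the wt points, and all 4 wt values of Ccnb1 and Bub1 lie in the grey range. The lowest rd1 value of Bub1, 4.88, also lies there.

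Of the 15 called genes, 7 had a wt P6 mean within the background range (Ccnb1, Bub1, Cenpf, Nusap1, Aspm, Kif4 and Ncapg), so the wt side of their difference was not separated from background and their folds are given as lower bounds, while no called gene had its rd1 P6 mean there. Each bound allows for the background range alone, not for the spread of the arrays, and was not tested. Over the whole set 3 genes were in that range in rd1 at P6, and 19 in wt. Signals of RNA quality overlapped between the genotypes at P6: 18S ribosomal RNA read 5.65 to 10.89 in rd1 and 5.58 to 10.84 in wt, the 3′ minus 5′ signal of Gapdh 0.29 to 0.74 in rd1 and 0.28 to 0.71 in wt, and that of Actb 1.26 to 1.65 in rd1 and 1.17 to 1.46 in wt. The part of the Actb shift in these differences was not tested.

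At P2, P4 and P8 no gene of the set was called. On the arrays labelled P2, none of the 55 genes was called higher in rd1 (0.00806% of all genes were), the arrays lay wholly apart for 2 (1.61% of all genes) and the median difference was 0.08, against 0.03 over all genes. At P4, none was called (0% of all genes), none lay wholly higher (2.23% of all genes) and the median difference was 0.06, against 0.03 over all genes. That P4 median was -0.13 without rd1 P4 replicate 1 and -0.21 without wt P4 replicate 3. At P8, 46 of the 55 means were above 0 and 13 genes were higher at an unadjusted p under 0.05 (14.6% of all genes were), but none was called (0.0726% of all genes were). The median difference at P8 was 0.33, against 0.06 over all genes, and the arrays did not overlap for 6 of the 55 genes, against 9.27% of all genes. Pbk had the largest P8 difference, 1.41 ± 0.37 (SE; adjusted p = 0.105, limma), with 5.61, 4.83, 6.91 and 4.31 in rd1, against 4.48, 3.70, 4.17 and 3.67 in wt. Mki67 averaged 4.59 ± 1.50 in rd1 and 3.53 ± 0.52 in wt (SD, n = 4 each), with rd1 values of 5.37, 3.05, 6.29 and 3.66, so the rd1 arrays at P8 were uneven. By then 25 of the 55 rd1 means and 29 of the 55 wt means were in the background range.

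Each genotype lost most of these transcripts within the 6 days covered. At P8 against P2, 54 of the 55 genes were lower in rd1 (17.6% of all genes were) and 54 in wt (18.8% of all genes), and Pttg1 was the exception in both. The median change was -4.72 in rd1 and -4.82 in wt. The most negative measured wt change of each role was found in Mki67 (-7.76), Cenpf (-7.51), Nusap1 (-7.28), Pbk (-7.25), Birc5 (-6.70), Ube2c (-6.47) and Anln (-5.74). The corresponding rd1 changes were -7.02 for Mki67, -7.09 for Cenpf, -6.94 for Nusap1, -5.70 for Pbk, -5.88 for Birc5, -5.50 for Ube2c and -5.52 for Anln. All 7 wt P8 means and the rd1 P8 means other than those of Pbk and Ube2c lay in the background range, so these changes are lower limits of the fall, and their order and the gaps between the genotypes were not resolved. Pttg1 stayed near 10 throughout, with means of 10.31 ± 0.24 in rd1 and 10.13 ± 0.16 in wt at P6 (SD, n = 4 each). Kif22 fell by 0.73 in rd1 and by 0.87 in wt on its brightest probe set, the only other gene with a fall under 1. Cell type markers shifted over the same days: the 18 rod markers had median changes of 3.59 in rd1 (17 called) and 3.73 in wt (18 called), the 18 progenitor markers -1.91 in rd1 and -1.82 in wt (17 called in each), and the 15 lens genes 3.87 in rd1 (14 called) and 2.73 in wt (13 called). Of all 12403 genes, 2276 in rd1 and 2356 in wt were called higher at P8 than at P2, and 2181 and 2337 lower. The average of the lens genes was 11.35 on rd1 P8 replicate 4, which had the lowest mitosis gene median of the rd1 arrays, 4.61, and 7.54 to 7.70 on the other 3 rd1 P8 arrays. It ran from 5.47 to 9.27 on the wt P8 arrays. The part of these shifts in the fall of the mitosis genes was not tested.

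**Figure D4:**
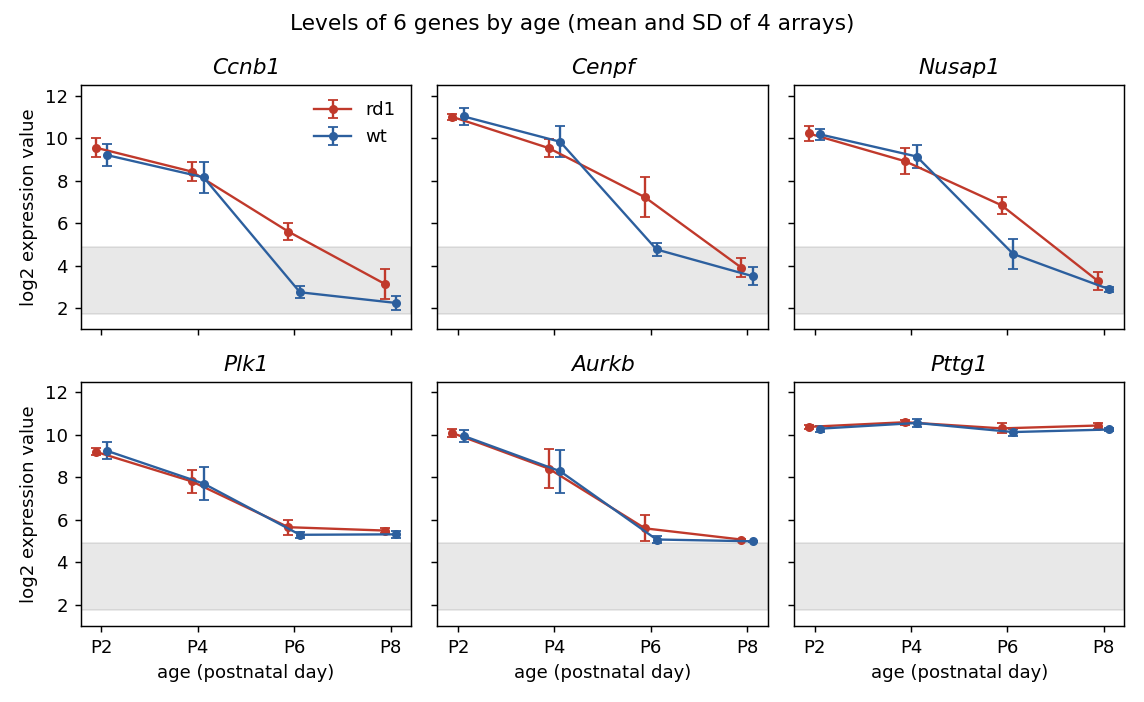
Log2 expression value (y axis, mean and SD of 4 arrays) by postnatal day (x axis) for 6 genes, rd1 in red and wt in blue, with the range of the Bacillus control probe sets in grey. Ccnb1, Cenpf and Nusap1 separate at P6 (5.60 against 2.75, 7.22 against 4.76 and 6.84 against 4.55, rd1 before wt). Plk1 and Aurkb fall together in both genotypes, and Pttg1 has little net change from P2 to P8.

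The fall was divided differently among the 3 intervals. From P2 to P4, 47 genes fell in rd1 (7.16% of all genes did) and 45 in wt (7.8%), with median changes of -1.17 in rd1 and -1.12 in wt. The wt count was 28 without wt P4 replicate 3, the wt array with the lowest set median at that age. From P4 to P6, 49 genes fell in rd1 (5.92% of all genes did) and 54 in wt (7.58%), with median changes of -1.89 in rd1 and -2.88 in wt. From P6 to P8, 39 genes fell in rd1 (9.02% of all genes did) and 20 in wt (7.14%), with median changes of -1.31 in rd1 and -0.60 in wt. That wt count was 12 without wt P8 replicate 4. At P6, 3 of the 55 rd1 means and 19 of the 55 wt means were already in the background range, which limited how far wt could be seen to fall after P6. Among the 26 genes whose P6 and P8 means were all above that range, 14 fell in rd1 and 6 in wt from P6 to P8, with median changes of -0.71 in rd1 and -0.34 in wt. Ccnb1 changed from P4 to P6 by -2.82 ± 0.34 in rd1 and -5.41 ± 0.34 in wt (SE), and its wt means at P6 and P8 were both in the background range.

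The difference between the genotypes' changes was tested directly. From P4 to P6 the change was higher, that is less negative, in rd1 in 54 of 55 genes, with a median difference of 0.87 against 0.01 over all genes. It was called for Cenpf (2.75 ± 0.50, SE; adjusted p = 0.0448, limma), Nusap1 (2.51 ± 0.44, SE; adjusted p = 0.0448, limma) and Ccnb1 (2.59 ± 0.48, SE; adjusted p = 0.0470, limma), 3 of 55 genes, against 0.0323% of all genes. These calls rested on single arrays: 3 to 5 genes were called without rd1 P4 replicate 1, rd1 P6 replicate 2, wt P4 replicate 3 or wt P6 replicate 4, and 0 without any other 1 of the 16 arrays. From P6 to P8 the change was lower in rd1 in 51 of 55 genes, with a median difference of -0.60, and no gene was called (0.0323% of all genes were), although 17 had an unadjusted p under 0.05 (2.56% of all genes did).

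Timing was described for the 53 genes that fell by at least 1 in both genotypes, as the percent of the P2 to P8 fall still to come at a given age. At P4 the median was 71.7% in rd1 and 75.5% in wt, with more remaining in rd1 in 18 of 53 genes. At P6 it was 28.6% in rd1 and 15.3% in wt, with more remaining in rd1 in 51 of 53 genes. Ncapd2 and Nek2 were the exceptions, with 18% and 16.4% remaining in rd1 against 24.3% and 24.9% in wt. Counted from P4 instead, without the arrays labelled P2, the medians were 41.8% in rd1 and 19.9% in wt, and again 51 of 53 genes had more remaining in rd1. Under 10% of the fall remained at P6 for 3 genes in rd1 (Plk1, Spc25 and Kif23) and for 18 in wt. Of those 18, 8 had wt means in the background range at both P6 and P8 (Ccnb1, Cdc25c, Melk, Bub1, Aurka, Aspm, Ncapg and Cdca5), where little further fall could be measured. For 24 of the 53 genes the P6 and P8 means lay above that range in both genotypes, which leaves out the steepest falls. Among these the medians at P6 were 22.5% in rd1 and 11.7% in wt, and 23 had more remaining in rd1. Some of them, such as Aurkb in wt, lay only just above the range. On straight lines between the wt means at P4 and P6, the rd1 P6 levels were reached at a median of P5.27, with quartiles of P5.10 and P5.45.

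The largest of the 3 steps lay between P4 and P6 for 32 genes in rd1 and 50 in wt, and between P6 and P8 for 14 genes in rd1 and 0 in wt. With 19 wt means already in the background range at P6, wt steps after P6 were limited. The 14 genes with their largest rd1 step from P6 to P8 were Ccna2, Cdk1, Pbk, Cdca3, Ttk, Cdc20, Cenpf, Nusap1, Aspm, Hmmr, Kif4, Top2a, Mki67 and Ncaph. Mki67 kept 55.1% of its fall at P6 in rd1 and 33.8% in wt, and Top2a 53.6% in rd1 and 18.1% in wt. At the other end, Plk1 kept 4.25% in rd1 and -0.56% in wt, and Aurkb 10.5% in rd1 and 1.70% in wt, so these transcripts read near their P8 level in both genotypes by P6. Their P6 means were 5.66 in rd1 and 5.30 in wt for Plk1, and 5.60 in rd1 and 5.08 in wt for Aurkb. These lay not far above the background range, which ended at 4.89, so a further fall may not have been measurable.

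**Figure D5:**
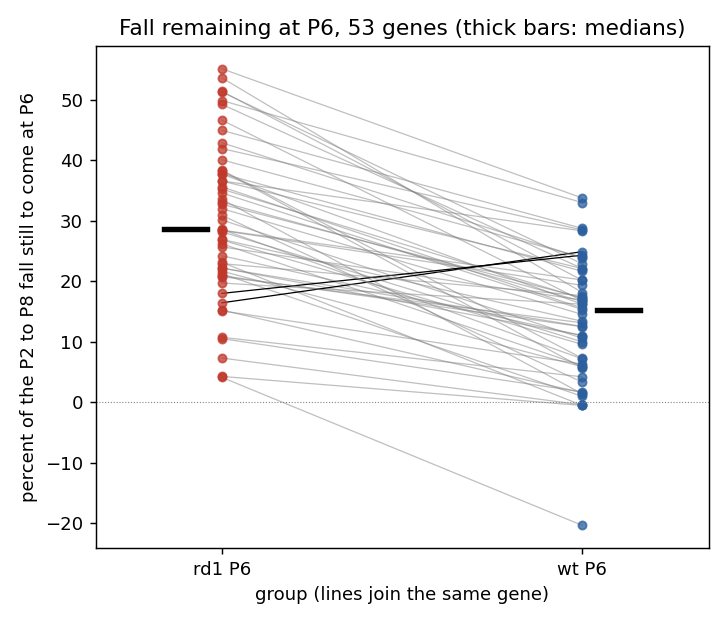
Percent of the P2 to P8 fall still to come at P6 (y axis) for 53 genes in rd1 (red, left) and wt (blue, right), with lines joining the same gene and thick bars at the medians, 28.6% in rd1 and 15.3% in wt. The lines slope down to wt in 51 genes, and the 2 black lines that slope up are Ncapd2 and Nek2.

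Other genes that lose transcript at this time had a smaller median difference at P6, and they also fell less. Among genes lower in wt by at least 1 at P8 than at P4, the 53 mitosis genes had a median rd1 minus wt difference at P6 of 1.02 and a median wt fall of 3.65. The 461 others had a median difference of 0.26 and a median fall of 1.42; 83.9% of them were above 0 and 4 were called, or 0.868%. The 101 others that fell by at least 2 had a median difference of 0.60 and a median fall of 2.47, with 99 above 0 and 4 called, or 3.96%. The median difference at P6 was thus 0.28 of the median fall for the mitosis genes, 0.18 for the 461 others and 0.24 for the 101 others. The others were all falling genes outside the set, so genes of the other cell cycle and progenitor lists were not removed from them. Both parts of the ratio for the mitosis genes were limited by the background range. It held 19 of the 55 wt means at P6 and 29 at P8. No test was made between these groups. Across the 55 mitosis genes, the P6 difference and the wt change from P2 to P8, which used different arrays, had a Pearson r of -0.84.

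Of 43 other mitosis genes measured, 40 had a difference above 0 at P6, with a median of 0.24, and 1 was called higher and none lower. Ckap2, a microtubule-stabilising spindle protein, was the called gene (7.87 ± 0.31 in rd1 and 6.83 ± 0.37 in wt, SD, n = 4 each; adjusted p = 0.0280, limma). Ncapg2, of condensin II, differed by 1.26 ± 0.29 (SE; adjusted p = 0.0641, limma). The 31 listed DNA replication genes were all above 0 with a median of 0.35 and no call, led by Mcm3, of the replicative helicase (0.79 ± 0.24, SE), and Rrm2, a ribonucleotide reductase subunit (1.39 ± 0.44, SE). Dbf4 and Hmgb2, which were not on that list, were called higher at P6. They differed by 1.06 ± 0.23 and 1.01 ± 0.21 (SE, adjusted p = 0.0408 and 0.0396, limma). Genes of G1 and of G1 to S control had a median of 0.28 over 16 genes and no call, with Cdk2 at 0.78 ± 0.27 and Cdk4 at 0.39 ± 0.15 (SE). Subunits of the anaphase promoting complex itself had no call, with 6 of 13 above 0, a median of -0.01 and Anapc11 (-0.36 ± 0.12, SE) and Anapc4 (0.20 ± 0.11, SE) as their leading genes. The 7 cohesin genes had a median of 0.17, with Smc1a at 0.50 ± 0.12 and Smc3 at 0.24 ± 0.13 (SE). The 10 inhibitors of cyclin-dependent kinases and genes of cell cycle exit had a median of 0.05, with Cdkn2c at 0.74 ± 0.22 and Gadd45a at -0.48 ± 0.25 (SE), and no call in either direction, as for the cohesin genes.

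Markers of retinal cell types moved beside the mitosis genes at P6. The 18 rod markers, averaged on each array, ran from 10.63 to 10.84 in rd1 and from 11.25 to 11.64 in wt; all 18 were below 0 and Pde6b alone was called. The 12 bipolar markers ran from 7.09 to 7.41 in rd1 and from 7.76 to 8.32 in wt, and 5 were called lower, led by Gabrr1 (-2.50) and Vsx1 (-1.38). Of all 12403 genes, 10 were called lower in rd1 at P6. The 18 progenitor markers ran from 8.30 to 8.58 in rd1 and from 8.08 to 8.18 in wt, with 14 above 0 and none called; Dll1, a Notch ligand of cells leaving the cycle, was highest by p (0.88 ± 0.21, SE; adjusted p = 0.0816, limma). The 15 lens genes ran from 5.01 to 6.69 in rd1 and from 6.26 to 7.86 in wt, with a median difference of -1.53 and no call. The array averages of Mueller glia, cone, amacrine and horizontal cell, ganglion cell, astrocyte, endothelial, microglial, pigment epithelial, red blood cell and mesenchymal markers overlapped between the genotypes, with median differences from -0.09 to 0.25 and no call. The part of these shifts in the mitosis genes' difference was not tested.

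Of the 55 genes, 27 had 1 probe set and 28 had 2 or more, 98 in all. The 43 other probe sets were above 0 at P6 in 40 cases, and 18 of them averaged within the background range. Probe sets of 12 genes differed in sign or call at P6. Kif11 was called higher on a dimmer probe set (1.49 ± 0.33, SE; adjusted p = 0.0462, limma) and not on its brightest. Cdc20 had differences of 0.98 and 0.73 on its brighter probe sets and -0.12 on another. Ncapg, called on its brightest probe set, had a difference of 0.09 ± 0.35 (SE) on another of nearly the same mean level. Incenp read 0.12, -0.13 and 0.08 on its probe sets, and Kif22 read -0.10, -0.02 and 0.13, with falls in wt of 2.45 and 2.64 at P8 against P2 on the dimmer pair. Prc1 was called on its brightest probe set and missed the threshold on the other (1.23 ± 0.30, SE; adjusted p = 0.0822, limma). The second probe sets of Bub1, Cenpf, Nusap1, Aspm and Top2a and both further ones of Cdca3 were in the background range, with differences from 0.05 to 0.39.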

How the data were processed

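The log2 expression values deposited by the authors came from Robust Multichip Average, which corrects background, quantile-normalizes and summarizes the probes of each probe set. Its software version was not given in the sources used here. These log2 values were used unchanged, on 22690 probe sets and 32 arrays, and the number of arrays limits the precision. A second deposited table holds the authors' own fold changes and FDR-CI p-values and was not used.

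Probe sets were named through the platform annotation given with the series: 20390 had 1 symbol, 691 had several and 1545 were not listed. Symbols of 10 probe sets, Ccnb1 among them, came from the study's supplementary list of genes that differed between rd1 and wt on these arrays, so only a differing gene could gain a name this way. The 64 control probe sets were left out. A limma 3.58.1 model (R 4.3.3) took the 32 arrays together, with a mean for each group, an intensity trend and 24 residual degrees of freedom, and p-values were adjusted over 22626 probe sets for each of 14 comparisons. The script was tested on simulated data. Alternatives changed the fit, scaling, filter, probe set or arrays.

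Members and lists were chosen with earlier results of these data known. Array values are printed for the gene with the smallest p of each role at P6 and for called genes up to 12, and other named genes were called, extreme in their role, not falling, or read differently by their probe sets. Each other pathway list is represented by its 2 genes with the smallest p.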

Additional observations from a re-analysis of the deposited data

Results flagged for a closer look

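Cdca3 read 7.44 on rd1 P6 replicate 3, apart from 6.65, 6.70 and 6.69 on the other 3 arrays of that group. It was the only one of 32 groups of 4 arrays looked at in which 1 array stood this far from the rest, and chance sets 1 apart in about 1 of 20 groups.

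The change from P4 to P6 differed between rd1 and wt by limma's test of that difference in 3 genes: 2.59 for Ccnb1 (adjusted p = 0.0470), 2.75 for Cenpf (adjusted p = 0.0448) and 2.51 for Nusap1 (adjusted p = 0.0448), in log2 units. In all 3 the level fell less in rd1 than in wt over this interval.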

How the results depend on the processing

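The number of genes called higher in rd1 at P6, 15 as reported, was 2 when the P6 arrays were fitted alone, 3 without the 8 arrays of P2, 29 with array quality weights and 3 to 20 when 1 array of P6 was left out. Ccnb1 was called in all of these alternatives, Nusap1 and Cenpf in 8 of 8 with an array left out and in 9 of 10 others. At P8 the count was 1 with array quality weights, and 0 to 1 with an array left out. Genes lower in wt at P4 than at P2 numbered 28 to 47, and at P8 than at P6 12 to 19, with an array left out. The 3 genes whose P4 to P6 change differed became 0 when the 4 groups were fitted alone, without the intensity trend, with the replicate block, with a further quantile normalization, with each gene averaged over its probe sets, or without the arrays of P2; they became 15 with array quality weights, and 0 to 5 with an array left out. For the P6 to P8 change the count was 7 with array quality weights, and 0 to 1 with an array left out. The cause of these shifts was not tested. Replicate numbers did not pair the samples (correlations of deviations from -0.42 to 0.61). With the replicate block 12 genes were called higher at P6. Apart from the count for the P4 to P6 change, which became 0 as given above, no further count moved by over 1.5 times.

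The percent of the fall remaining at P6, counted from P4 as chosen after seeing the data, was 41.8% in rd1 and 19.9% in wt. Over the 24 genes above the background range at P6 and P8, also chosen after seeing the data, it was 22.5% in rd1 and 11.7% in wt. The median difference at P4 ran from -0.21 to 0.19 with an array left out; no other result changed direction under the alternatives run. Levels near the background range, as for 19 genes in wt at P6, limit how large a fold can be measured.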
